A study of Mus musculus with 12 samples.

Results

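The 34 cell division and DNA replication genes examined here are the genes of the deposited count table, among 43346 listed, whose symbol is on a fixed list. The list covers replication licensing factors, nucleotide enzymes, cyclins and their kinases, spindle and chromosome proteins and mitotic exit factors. All 34 were found and 29 had enough reads to be tested. The label fits what these genes are known for, but it says nothing of how many cells divide in the tissue. The RNA came from quadriceps, the large thigh muscle, of C57BL/6 mice in 3 groups of 4 libraries. The D+Q mice were 24 months old and had been gavaged from month 20, on 3 days in each 2 weeks, with 5 mg/kg of dasatinib and 50 mg/kg of quercetin. The old vehicle mice were also 24 months old and were gavaged on the same days with the vehicle of ethanol, polyethylene glycol and Phosal 50. The young mice were 6 months old. No gavage is stated for them, so age and gavage differ together between either old group and the young one. The first drug inhibits tyrosine kinases and the second is a flavonoid from plants; together they serve as a senolytic, a treatment aimed at senescent cells. The labels do not state that each library is a separate mouse, so the p-values rest on a spread between libraries that may be technical.

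A cell that enters division first licenses its replication origins. Cdc6 and Cdt1 load the Mcm2 to Mcm7 helicase, and geminin (Gmnn) blocks Cdt1 until division is over. Ribonucleotide reductase and thymidylate synthase then supply nucleotides, cyclins A, B and E drive their kinases, and spindle proteins separate the chromosomes. Muscle fibres are post-mitotic, so in adult muscle division is known from satellite cells and from interstitial, vascular and immune cells. In RNA from whole muscle, fewer cells of a type and less RNA per cell cannot be told apart.

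Depth was 26715140 to 49792488 counted reads per library, at which 3 reads amount to 0.0561 to 0.106 CPM (counts scaled to the library total after TMM correction). The 34 genes together held 0.0172% to 0.023% of the reads of a library. The tissue label was checked on 10 muscle fibre markers, which were all detected in every library and summed to 109000 to 160000 CPM in D+Q muscle, 109000 to 133000 CPM in old vehicle and 107000 to 147000 CPM in young muscle. The sum over the 34 genes was 189 to 198 CPM in D+Q muscle, 189 to 205 CPM in old vehicle and 183 to 223 CPM in young muscle, so the ranges of the 3 groups overlapped. Rrm1 and Pcna make up much of that sum.

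Many of these genes are known targets of the DREAM and B-Myb complexes, which bind the CHR element and the CCAAT box, or of E2F factors. The windows from 250 bases before to 30 bases after the start site are shown for 6 genes. They are Mki67 and Top2a, which moved together across the libraries, Ccnb1 and Kif11, whose ranks followed Mki67, and Rrm1 and Pcna, which had the highest levels and did not follow it. Capitals mark matches, on either strand, to the CHR letters TTTGAA and to the CCAAT box letters CCAAT. E2F letters searched were TTTGGCGC, TTTCCCGC, TTTCGCGC and TTTGCCGC, and none occurred in these 6 windows. Sequences are from RefSeq on GRCm38.p6, written 5′ to 3′ in the direction of transcription, and lie at chr7:135716350-135716629 (minus strand, Mki67), chr11:99024160-99024439 (minus strand, Top2a), chr13:100786457-100786736 (minus strand, Ccnb1), chr19:37376132-37376411 (plus strand, Kif11), chr7:102441445-102441724 (plus strand, Rrm1) and chr2:132253151-132253430 (minus strand, Pcna).
Mki67: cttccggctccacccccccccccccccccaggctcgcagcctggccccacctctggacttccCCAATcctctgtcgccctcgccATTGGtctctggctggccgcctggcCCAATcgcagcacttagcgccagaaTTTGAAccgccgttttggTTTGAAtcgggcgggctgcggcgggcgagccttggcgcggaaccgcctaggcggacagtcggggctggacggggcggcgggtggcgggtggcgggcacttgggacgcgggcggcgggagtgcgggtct
Top2a: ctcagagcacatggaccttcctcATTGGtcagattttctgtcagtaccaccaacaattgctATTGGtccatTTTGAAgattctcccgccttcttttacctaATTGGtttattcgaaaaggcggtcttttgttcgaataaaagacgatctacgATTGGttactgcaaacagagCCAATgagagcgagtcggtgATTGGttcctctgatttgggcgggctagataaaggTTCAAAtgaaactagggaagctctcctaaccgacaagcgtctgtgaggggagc
Ccnb1: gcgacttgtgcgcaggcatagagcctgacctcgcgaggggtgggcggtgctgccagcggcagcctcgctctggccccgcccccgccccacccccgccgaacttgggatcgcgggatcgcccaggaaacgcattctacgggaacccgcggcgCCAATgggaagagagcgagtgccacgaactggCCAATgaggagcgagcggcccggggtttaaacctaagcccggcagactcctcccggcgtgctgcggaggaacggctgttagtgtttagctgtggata
Kif11: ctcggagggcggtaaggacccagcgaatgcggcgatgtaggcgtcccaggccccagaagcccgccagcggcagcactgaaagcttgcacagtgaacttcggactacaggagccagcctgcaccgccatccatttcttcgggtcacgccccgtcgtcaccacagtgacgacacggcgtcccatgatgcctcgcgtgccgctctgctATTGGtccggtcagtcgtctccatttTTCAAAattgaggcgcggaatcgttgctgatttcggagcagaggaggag
Rrm1: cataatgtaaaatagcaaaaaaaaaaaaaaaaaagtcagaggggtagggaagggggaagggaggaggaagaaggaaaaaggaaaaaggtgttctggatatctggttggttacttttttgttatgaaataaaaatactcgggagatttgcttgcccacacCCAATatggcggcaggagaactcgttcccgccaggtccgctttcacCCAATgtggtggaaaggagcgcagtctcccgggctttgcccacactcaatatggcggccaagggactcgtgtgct
Pcna: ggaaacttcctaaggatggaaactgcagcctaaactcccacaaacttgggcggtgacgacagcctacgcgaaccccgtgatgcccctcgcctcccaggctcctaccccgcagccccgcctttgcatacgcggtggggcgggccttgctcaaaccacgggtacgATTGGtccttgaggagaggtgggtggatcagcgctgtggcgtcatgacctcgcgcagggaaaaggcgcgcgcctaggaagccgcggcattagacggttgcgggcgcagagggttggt

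The Mki67 window held 2 CHR and 3 CCAAT matches, and that of Top2a 2 CHR and 6 CCAAT matches. Kif11 had 1 match of each kind. Ccnb1 and Rrm1 each had 2 CCAAT matches and no match to TTTGAA, and Pcna had 1 CCAAT match. TTTGAA was the only form of the CHR letters searched. Of the 28 members with a RefSeq promoter entry, 9 (32.1%) held the CHR letters, against 19.5% of 27025 genes with an entry. Those 9 were Mki67, Top2a, Cenpa, Cdk1, Kif11, Cdc20, Ccnb2, Ube2c and Mcm2. Pearson's r with Mki67 across the libraries was 0.96 for Top2a, 0.63 for Cenpa, 0.51 for Cdk1 and 0.50 for Kif11. It was 0.10 for Cdc20, -0.07 for Ccnb2, -0.21 for Ube2c and -0.64 for Mcm2. A link between the letters and r was not tested. The CCAAT letters stood in 23 (82.1%), against 39.7% of all genes, and one of the E2F words in 7 (25.0%), against 2.45%. The 7 were Mcm3, Mcm5, Mcm6, Mcm7, Cdk1, Cdk2 and Cdc6. All 9 members with CHR letters also had a CCAAT match, a combination found in 8.33% of all genes, and 1 pair of matches of different motifs overlapped among the members. These are matches of letters in one window and not sites shown to be bound. Mcm4, Ccna2, Ccne2, Aurkb, Gmnn and Tpx2 had no entry in the table used.

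The genes spanned a wide range of levels per gene length. In RPKM, a count scaled to gene length and library total, as deposited and averaged over the 12 libraries, Rrm1, the large subunit of ribonucleotide reductase, was highest at 18.8 and Pcna, the replication clamp, next at 10.2. Gmnn had 5.56 RPKM and the spindle kinase Aurka 3.46 RPKM. The 6 helicase subunits act as one ring but their RPKM levels differed, with Mcm7 at 2.78, Mcm2 at 2.5, Mcm4 at 2.22, Mcm6 at 1.5, Mcm3 at 1.27 and Mcm5 at 0.391. The neighbours Mcm7 and Mcm2 overlapped in their spreads in D+Q and young muscle, at 2.77 ± 0.256 and 2.66 ± 0.302 RPKM in D+Q and at 2.58 ± 0.567 and 2.45 ± 0.281 RPKM in young (SD, n = 4). In old vehicle they did not, at 3.01 ± 0.219 RPKM for Mcm7 and 2.4 ± 0.0849 RPKM for Mcm2. Some mitotic genes lay far lower. Mki67, the proliferation marker, had 0.097 RPKM and Cdk1, the kinase of mitosis, 0.0978 RPKM. Top2a, the topoisomerase that untangles chromosomes, had 0.0829 RPKM. Levels did not split by role, since the mitotic genes Tpx2 and Ube2c had 1.95 and 1.14 RPKM. Of the licensing genes, Cdt1 and Cdc6 had only 0.206 and 0.141 RPKM. Cenpe, a kinetochore motor, was lowest at 0.02 RPKM. Levels of Rrm1 and its small-subunit partner Rrm2 were unlike, since Rrm2 had 0.494 RPKM.

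**Figure D1:**
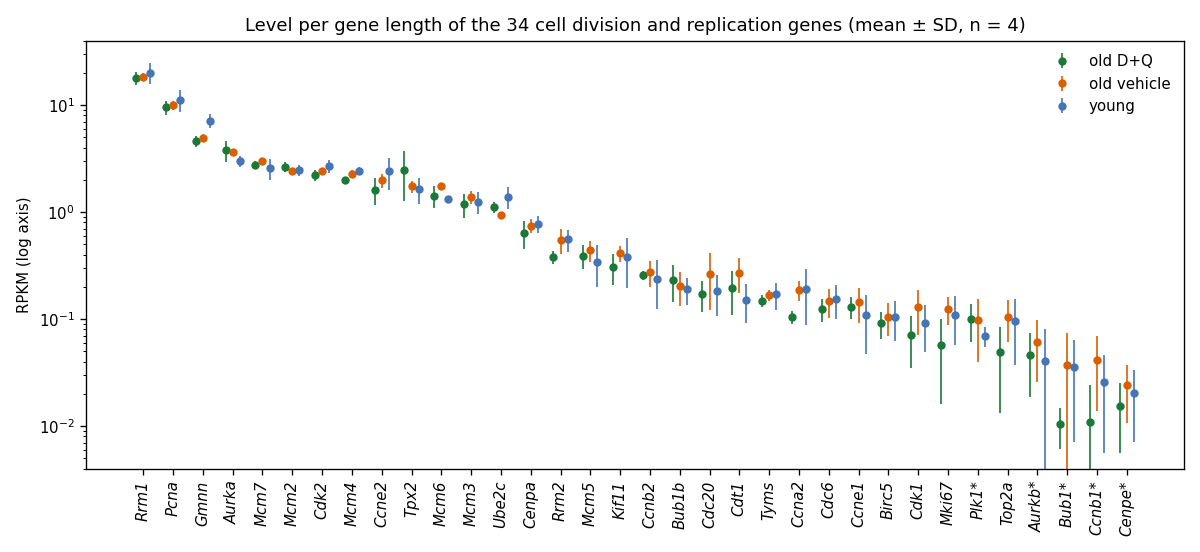
Deposited RPKM on a log axis of the 34 genes, ordered by their mean over 12 libraries, as mean ± SD of 4 libraries for D+Q, old vehicle and young muscle. An asterisk marks the 5 genes with too few reads to test, and bars that reach the lower edge run below it. Levels run from 18.8 RPKM for Rrm1 to 0.02 RPKM for Cenpe.

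Old vehicle muscle was set against young muscle to ask what age, together with gavage, went with. In the quasi-likelihood test of edgeR, adjusted by Benjamini and Hochberg's method over 16146 genes, none of the 29 tested genes passed an adjusted p under 0.05, where 300 genes (1.86%) of all those tested did. At an unadjusted p under 0.05 there were 3 of 29, against 16.0% of all genes. The 4 libraries of each group did not overlap for 3 of 29, Mcm6, Gmnn and Ube2c, against 9.36% of all genes. Both shares lie near those of all genes. Fold changes were positive in 17 and negative in 12, where 49.0% of all genes were positive, with a median log2 fold change of 0.11 beside -0.01 over all genes. DESeq2 passed 1 member, Gmnn, in this comparison, and a filter of at least 1 CPM in 4 libraries also passed Gmnn alone.

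Gmnn (ENSMUSG00000006715, chr13:24751845-24761923, mm10) came closest to the threshold. It had 6.04, 7.61, 7.15 and 6.88 CPM in D+Q muscle, 7.52, 6.69, 6.78 and 7.57 CPM in old vehicle and 11.3, 9.2, 9.29 and 11.3 CPM in young muscle. Each library of both old groups was below each young library, and the old groups overlapped each other. In old vehicle against young the log2 fold change was -0.52 ± 0.12 (SE), with an adjusted p of 0.0536. In D+Q against young it was -0.57 ± 0.12 with an adjusted p of 0.0545, a comparison that shares its young libraries with the previous one. Across 17 other settings the adjusted p ran from 0.00291 to 0.159 for old vehicle against young and from 0.000859 to 0.198 for D+Q against young, and in each of these comparisons 3 of the 17 passed. Those were DESeq2, the filter of at least 1 CPM (0.0481 and 0.0466) and leaving out young library 2 (0.0249 and 0.0194). D+Q against old vehicle gave -0.04 ± 0.12. The licensing loaders had overlapping groups. Cdt1, its binding partner, had 0.477, 0.544, 0.612 and 0.155 CPM in D+Q muscle, 0.28, 0.608, 0.65 and 0.838 CPM in old vehicle and 0.489, 0.29, 0.319 and 0.198 CPM in young muscle. The groups overlapped, with a log2 fold change of 0.84 ± 0.44 for old vehicle over young (adjusted p = 0.354) and -0.40 ± 0.42 for D+Q over old vehicle. That of D+Q over old vehicle was -0.65 without old vehicle library 1, -0.19 without old vehicle library 4 and -0.11 without D+Q library 4. The span of Cdt1 overlaps another listed gene, Gm20388, with 37450 reads against 230 for Cdt1. Cdc6, the loader that acts with Cdt1, ranged from 0.466 to 0.827 CPM in D+Q muscle, 0.515 to 0.991 CPM in old vehicle and 0.39 to 1.05 CPM in young muscle, with log2 fold changes of -0.10 ± 0.30 for old vehicle over young and -0.18 ± 0.30 for D+Q over old vehicle.

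The helicase subunits differed among themselves in direction, and none passed the test. Mcm6 had 5.3, 7.89, 8.33 and 5.77 CPM in D+Q muscle, 7.57, 8.49, 8.51 and 7.97 CPM in old vehicle and 6.2, 6.73, 5.6 and 5.55 CPM in young muscle. All 4 old vehicle libraries were above all 4 young ones, while D+Q libraries lay on both sides. The log2 fold change of old vehicle over young was 0.43 ± 0.16, with an adjusted p of 0.204. Mcm4 had 7.54, 7.35, 7.15 and 7.32 CPM in D+Q muscle, 7.98, 8.43, 8.27 and 7.32 CPM in old vehicle and 8.62, 8.45, 9.08 and 8.08 CPM in young muscle. Each D+Q library was below each young one, with a log2 fold change of -0.22 ± 0.10 and an adjusted p of 0.28, and D+Q and old vehicle overlapped. Mcm2, Mcm3, Mcm5 and Mcm7 had overlapping groups in every comparison, with log2 fold changes from -0.18 ± 0.23 (Mcm3, D+Q over old vehicle) to 0.34 ± 0.31 (Mcm5, old vehicle over young). Mcm7 lies across Cops6 and Ap4m1 and a cluster of miRNAs, and the strand setting of the counting is not given in the sources used here, so its reads may include theirs.

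Pcna and Rrm1, the genes with the highest levels, had overlapping groups in every comparison. Pcna had 22.0, 24.0, 21.1 and 26.5 CPM in D+Q muscle, 24.1, 25.0, 22.0 and 23.6 CPM in old vehicle and 23.5, 23.7, 22.9 and 35.4 CPM in young muscle. All but young library 4 lay between 21.1 and 26.5 CPM. Its log2 fold change was -0.16 ± 0.14 for old vehicle over young and -0.02 ± 0.14 for D+Q over old vehicle. Pseudogenes Pcna-ps1 and Pcna-ps2, whose reads could be split with those of Pcna, had 1010 reads together, against 12286 for Pcna. Rrm1 had 68.3, 69.2, 73.2 and 82.1 CPM in D+Q muscle, 72.8, 77.2, 72.1 and 67.6 CPM in old vehicle and 72.5, 61.3, 85.9 and 94.0 CPM in young muscle. The groups overlapped and the log2 fold changes were -0.11 ± 0.13 for old vehicle over young and 0.02 ± 0.13 for D+Q over old vehicle, a sign that library totals alone as the scaling turned to -0.04. Tyms, thymidylate synthase, stood at 0.827 to 1.04 CPM in D+Q muscle, 0.951 to 1.1 CPM in old vehicle and 0.822 to 1.4 CPM in young muscle, with an adjusted p of 0.964 for old vehicle against young.

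Rrm2 is the subunit that is made in S phase, when DNA is copied. It had 1.07, 0.945, 1.06 and 1.22 CPM in D+Q muscle, 1.25, 2.0, 1.19 and 1.59 CPM in old vehicle and 1.56, 1.09, 1.77 and 1.56 CPM in young muscle. The D+Q libraries were low, but 1 of them was above the lowest old vehicle library. For D+Q over old vehicle the log2 fold change was -0.49 ± 0.21, with an unadjusted p of 0.0395 and an adjusted p of 1. Without old vehicle library 2 that value was -0.32. Old vehicle over young gave 0.02 ± 0.21.

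D+Q was compared with old vehicle to ask what the drugs changed in old muscle. None of the 29 genes passed, and none of the 16146 tested genes did (0.0%), although 349 genes had an unadjusted p under 0.05 and DESeq2 called 12. Among the members, 2 of 29 had an unadjusted p under 0.05, Rrm2 and Ccna2, against 2.16% of all genes. The groups did not overlap for 2, Ccna2 and Ube2c, against 2.17%. Fold changes were negative in 23 and positive in 6, where 53.0% of all genes were positive, with a median log2 fold change of -0.12 beside 0.01 over all genes. The negative count was 24 of 29 with library totals alone, and without D+Q library 4 it was 20 of 32 tested members, with a median of -0.04. Negative values stood in 9 of 10 licensing and replication genes, 2 of 3 nucleotide genes, all 6 tested cyclins and kinases, 4 of 7 spindle and chromosome genes, and 2 of 3 exit genes and markers. Members measured in the same libraries are not independent, and these counts carry no test.

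Among the members, Top2a, Mki67, Cdk1 and Ccna2 had the most negative fold changes of this comparison, and none passed. Mki67 (chr7:135689788-135716379) had 0.31, 1.18, 0.659 and 0.244 CPM in D+Q muscle, from 13, 50, 28 and 11 reads, 1.35, 1.52, 0.759 and 1.27 CPM in old vehicle and 1.31, 0.357, 1.13 and 1.47 CPM in young muscle. D+Q libraries 1 and 4 and young library 2 were low, and the groups overlapped. The log2 fold change of D+Q over old vehicle was -1.04 ± 0.49, with an unadjusted p of 0.0544 and an adjusted p of 1. Top2a (chr11:98992943-99024189) had 0.167, 0.875, 0.541 and 0.222 CPM in D+Q muscle, 0.935, 1.35, 0.434 and 0.997 CPM in old vehicle and 1.42, 0.245, 0.78 and 0.85 CPM in young muscle. The same 3 libraries were lowest, and D+Q over old vehicle gave -1.05 ± 0.56 with an adjusted p of 1. Against young muscle, D+Q gave -0.82 ± 0.50 for Mki67 and -0.87 ± 0.57 for Top2a, with adjusted p of 0.352 and 0.379. Without D+Q library 2, Mki67 gave -1.6 and Top2a -1.58 for D+Q over old vehicle, and -1.39 and -1.4 for D+Q over young. Top2a gave -0.44 for D+Q over young without young library 1.

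Cyclin A2 (Ccna2, chr3:36564866-36572150) partners the kinases of S phase and early mitosis. It had 0.382, 0.449, 0.376 and 0.311 CPM in D+Q muscle, 0.654, 0.804, 0.515 and 0.612 CPM in old vehicle and 0.932, 0.267, 0.461 and 0.935 CPM in young muscle. Each D+Q library was below each old vehicle library, while young libraries lay on both sides. D+Q over old vehicle gave a log2 fold change of -0.77 ± 0.35, with an unadjusted p of 0.0495 and an adjusted p of 1. The gene Exosc9 overlaps its span and had 15892 reads, against 281 for Ccna2. Cdk1, the kinase that cyclins A and B activate, had 0.143, 0.425, 0.259 and 0.177 CPM in D+Q muscle, 0.374, 0.587, 0.19 and 0.612 CPM in old vehicle and 0.466, 0.423, 0.177 and 0.198 CPM in young muscle. Its groups overlapped, with -0.82 ± 0.45 for D+Q over old vehicle and 0.44 ± 0.44 for old vehicle over young, the second running from 0.25 without old vehicle library 4 to 0.68 without young library 1. Ccnb2, a B-type cyclin, ranged from 0.377 to 0.449 CPM in D+Q muscle, 0.299 to 0.589 CPM in old vehicle and 0.106 to 0.489 CPM in young muscle, at -0.04 ± 0.35 for D+Q over old vehicle. The pseudogene Ccnb2-ps, whose reads could be split with those of Ccnb2, had 75 reads, against 204 for Ccnb2. The G1/S cyclins Ccne1 and Ccne2 gave -0.08 ± 0.38 and -0.23 ± 0.24 in that comparison, and their kinase Cdk2 -0.07 ± 0.15.

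Ube2c, a ubiquitin-conjugating enzyme of mitotic exit, differed from these in direction. It had 3.15, 2.48, 3.25 and 3.02 CPM in D+Q muscle, 2.47, 2.43, 2.28 and 2.45 CPM in old vehicle and 2.77, 3.52, 3.23 and 4.68 CPM in young muscle. Old vehicle libraries were below all others. The log2 fold change was -0.56 ± 0.17 for old vehicle over young (adjusted p = 0.129) and 0.30 ± 0.17 for D+Q over old vehicle (adjusted p = 1). Its span overlaps Tnnc2, the fast troponin C of muscle fibres, which had 3734961 reads against 1480 for Ube2c, so reads of both genes may be mixed. Cdc20, the activator of the same exit pathway, had groups that overlapped, at 0.177 to 0.454 CPM in D+Q muscle, 0.271 to 0.906 CPM in old vehicle and 0.198 to 0.579 CPM in young muscle. The span of Cdc20 overlaps Elovl1, which had 5034 reads against 201 for Cdc20.

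The spindle genes Tpx2 and Aurka did not share the low D+Q values of Mki67. TPX2 binds and activates the Aurora A kinase that Aurka encodes. Tpx2 had 10.3, 11.4, 6.56 and 18.9 CPM in D+Q muscle, 7.4, 8.56, 6.94 and 9.36 CPM in old vehicle and 6.43, 7.04, 10.2 and 6.26 CPM in young muscle. D+Q library 4 was the highest of all and D+Q library 3 lay among the young ones, with a log2 fold change of 0.55 ± 0.27 for D+Q over old vehicle and 0.66 ± 0.27 for D+Q over young (adjusted p = 0.255). Without D+Q library 4 these were 0.23 and 0.34. Aurka had 12.9, 10.6, 9.79 and 6.41 CPM in D+Q muscle, 8.0, 9.54, 9.89 and 8.97 CPM in old vehicle and 7.01, 9.14, 7.23 and 6.38 CPM in young muscle. D+Q library 1 was highest and D+Q library 4 near the lowest. Its log2 fold change was 0.41 ± 0.19 for D+Q over young (adjusted p = 0.281; 0.25 without D+Q library 1) and 0.29 ± 0.19 for old vehicle over young. The remaining tested genes of this role, the checkpoint kinase Bub1b, survivin (Birc5), the centromeric histone Cenpa and the spindle motor Kif11, had overlapping groups throughout, with log2 fold changes from -0.38 ± 0.33 (Kif11, D+Q over old vehicle) to 0.39 ± 0.32 (Bub1b, D+Q over young).

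**Figure D2:**
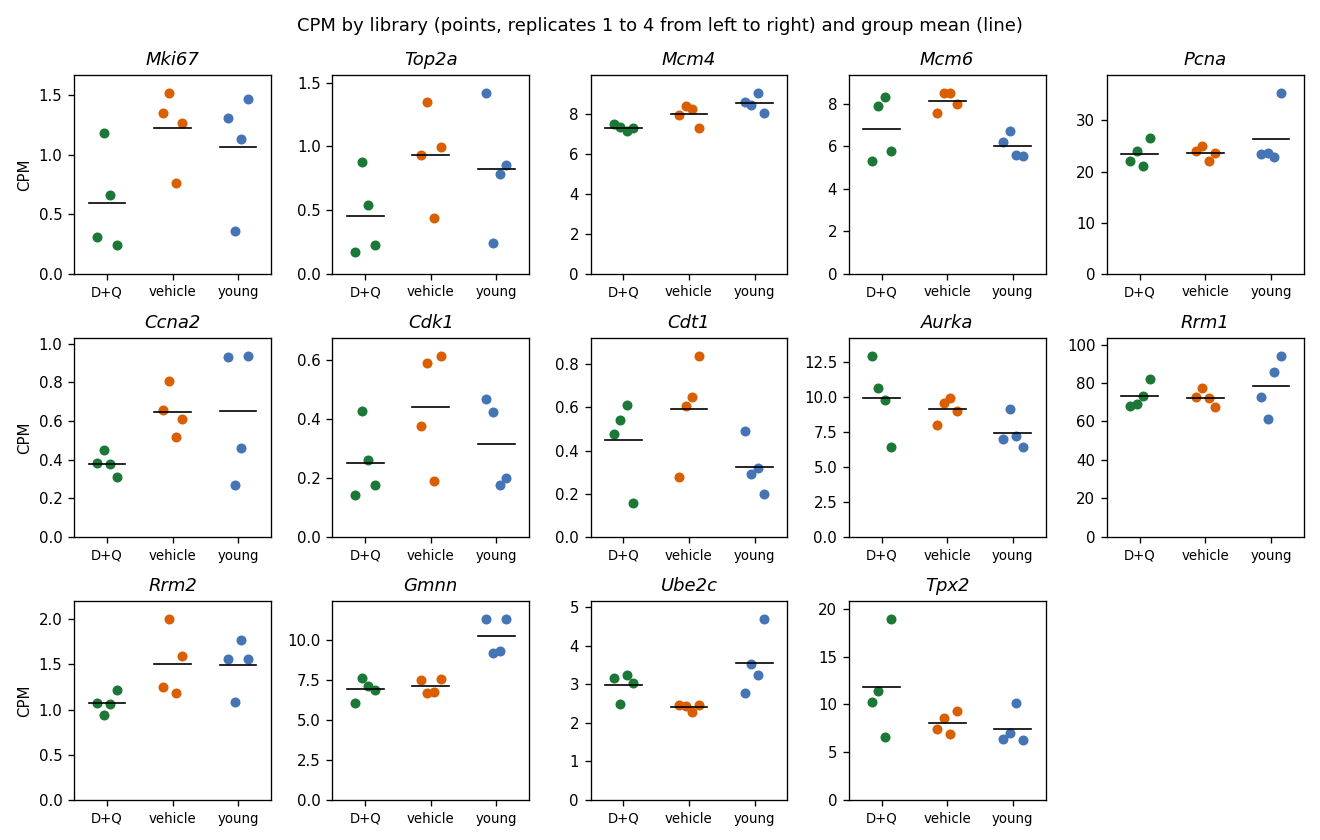
CPM in each of the 12 libraries for the 14 genes given library by library, one panel a gene, with D+Q left of old vehicle and young muscle and a line at each group's mean. Gmnn is below every young library in all 8 old libraries, and Mki67 and Top2a are low in D+Q libraries 1 and 4 and young library 2.

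**Figure D3:**
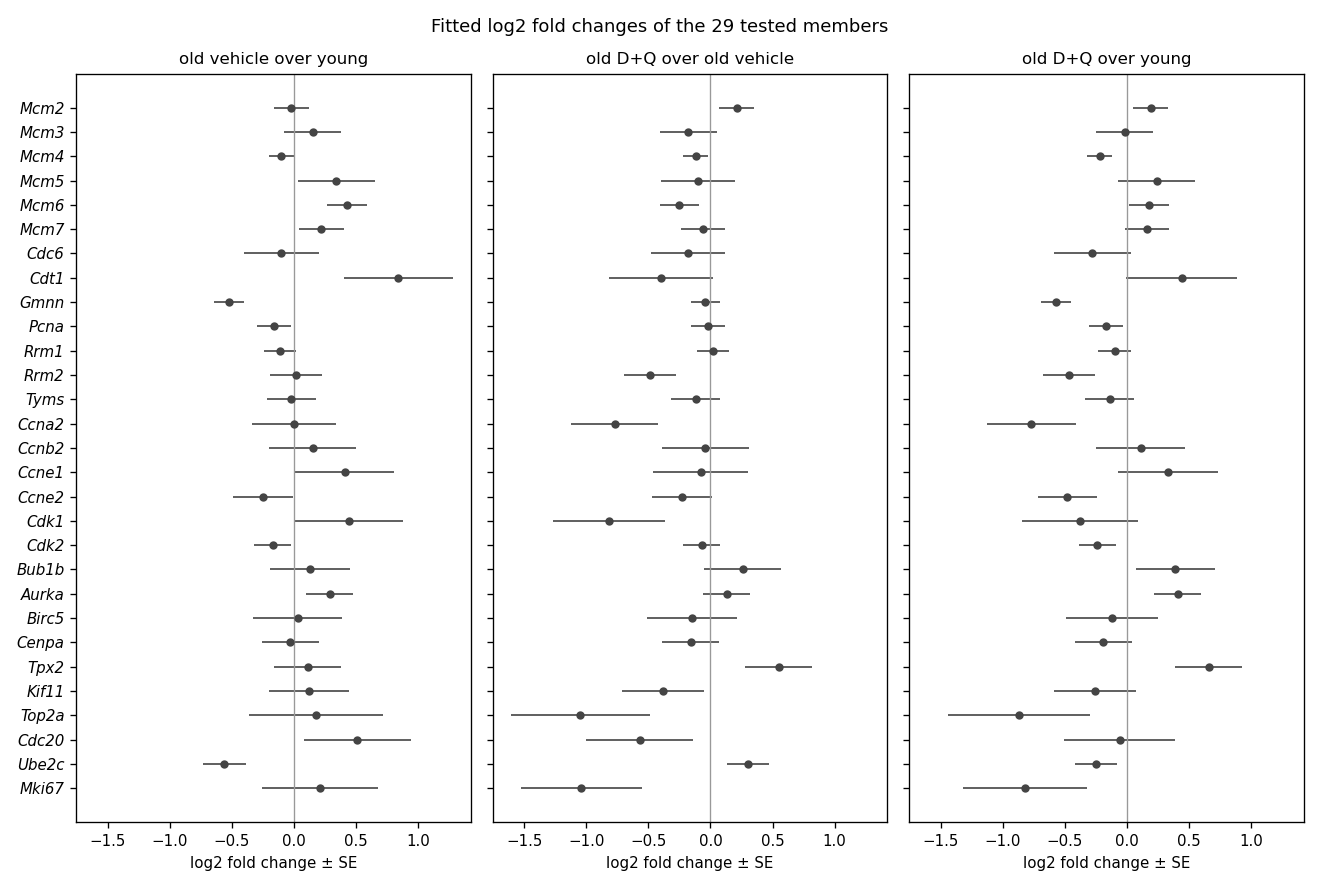
Fitted log2 fold change ± SE of the 29 tested genes in old vehicle over young, D+Q over old vehicle and D+Q over young muscle. None passed an adjusted p under 0.05 in any of them. The middle comparison has 23 of 29 values below 0.

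D+Q was also compared with young muscle. None of the 29 genes passed here either, against 144 (0.892%) of all genes. At an unadjusted p under 0.05 there were 3 of 29, Gmnn, Tpx2 and Rrm2, against 17.8% of all genes, and the groups did not overlap for 2, Gmnn and Mcm4, against 6.69%. Fold changes were negative in 19 and positive in 10, where 49.7% of all genes were positive. The counts changed without young library 2. Without it 3 of 32 tested members, Gmnn, Ccne2 and Ccna2, were lower in D+Q at an adjusted p under 0.05. Ccna2 then had a log2 fold change of -1.08 and an adjusted p of 0.0405. Calls over all genes rose as well, to 1935, of which 868 were lower, against 144 with that library. For old vehicle against young they numbered 1022, against 300.

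The 5 genes below the read filter are mitotic, and their raw reads are given summed over the 4 libraries of a group. Cyclin B1 (Ccnb1), the partner of Cdk1 at mitotic entry, had 8 reads in D+Q, 32 in old vehicle and 16 in young muscle. It had no read in D+Q libraries 1 and 3, where 3 reads would be 0.0716 and 0.0706 CPM, and 15 reads in old vehicle library 2. Bub1, a checkpoint kinase, had 8 reads in D+Q, 28 in old vehicle and 22 in young muscle, and 17 of the old vehicle reads came from library 2. The kinetochore motor Cenpe had 21 reads in D+Q, 34 in old vehicle and 23 in young muscle. The mitotic kinases Plk1 and Aurkb had 39 and 24 reads in D+Q, 38 and 33 in old vehicle and 24 and 17 in young muscle. In CPM, Ccnb1 averaged 0.0462 ± 0.0573 in D+Q, 0.173 ± 0.114 in old vehicle and 0.104 ± 0.0797 in young muscle (SD, n = 4). With no filter on low counts, 0 of the 34 genes passed in any comparison, so no difference was detected for these 5. Whether depth or the spread between libraries limits them was not tested.

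Across libraries the genes did not move as one block. Over the 12 libraries, Pearson's r of log2 CPM with Mki67 ran from -0.64 for Mcm2 to 0.96 for Top2a, with a median of 0.33 over 33 relations. Top2a had r = 0.96 and Spearman's rho = 0.87 (permutation p 4e-05 and 0.00041, adjusted over the 33 relations 0.00132 and 0.00676). Ccne2 had r = 0.87 and rho = 0.78 (permutation p 8e-05 and 0.00407, adjusted 0.00132 and 0.0269). The span of Ccne2 overlaps Ints8, with 12649 reads against 3449 for Ccne2, so its reads may include those of Ints8. Ccna2 had r = 0.84 and rho = 0.90 (permutation p 0.00054 and 0.00026, adjusted 0.00594 and 0.00676). For Ccnb1 and Kif11 the rank relation alone passed, at rho = 0.82 and 0.80 (permutation p 0.00202 and 0.00277, adjusted 0.0222 and 0.0229), beside r = 0.71 and 0.50 (permutation p 0.0104 and 0.0924, adjusted 0.0859 and 0.277). Without D+Q libraries 4 and 1, the farthest from the median of Mki67, r was 0.93 for Top2a, 0.83 for Ccne2, 0.86 for Ccna2, 0.80 for Ccnb1 and 0.33 for Kif11. Pearson's r of Kif11, which had not passed over all 12 libraries, was thus lower without those libraries. With group means subtracted, r was 0.94 for Top2a, 0.92 for Ccne2 and 0.76 for Ccna2, with no test. Over the 9 libraries with more Mki67, a choice made after seeing the data, r was 0.85 for Top2a, 0.78 for Ccne2 and 0.76 for Ccna2. The points share libraries and scaling, and the Mki67 level rests on 11 to 72 reads a library.

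Among the other genes none passed. For Rrm2 r was 0.57, for Mcm6 0.36, for Rrm1 0.30 and for Pcna 0.24 (adjusted permutation p 0.203, 0.458, 0.552 and 0.652). The mitotic genes Cdc20, Bub1b and Ccnb2 had r of 0.10, 0.09 and -0.07. Tpx2, Mcm7 and Mcm2 had negative values of -0.47, -0.45 and -0.64 (adjusted permutation p 0.313, 0.339 and 0.121). In log2 values rounded to 2 decimals, D+Q library 4 had 27 of the 34 genes below their own mean over all libraries, and old vehicle library 2 had 6.

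**Figure D4:**
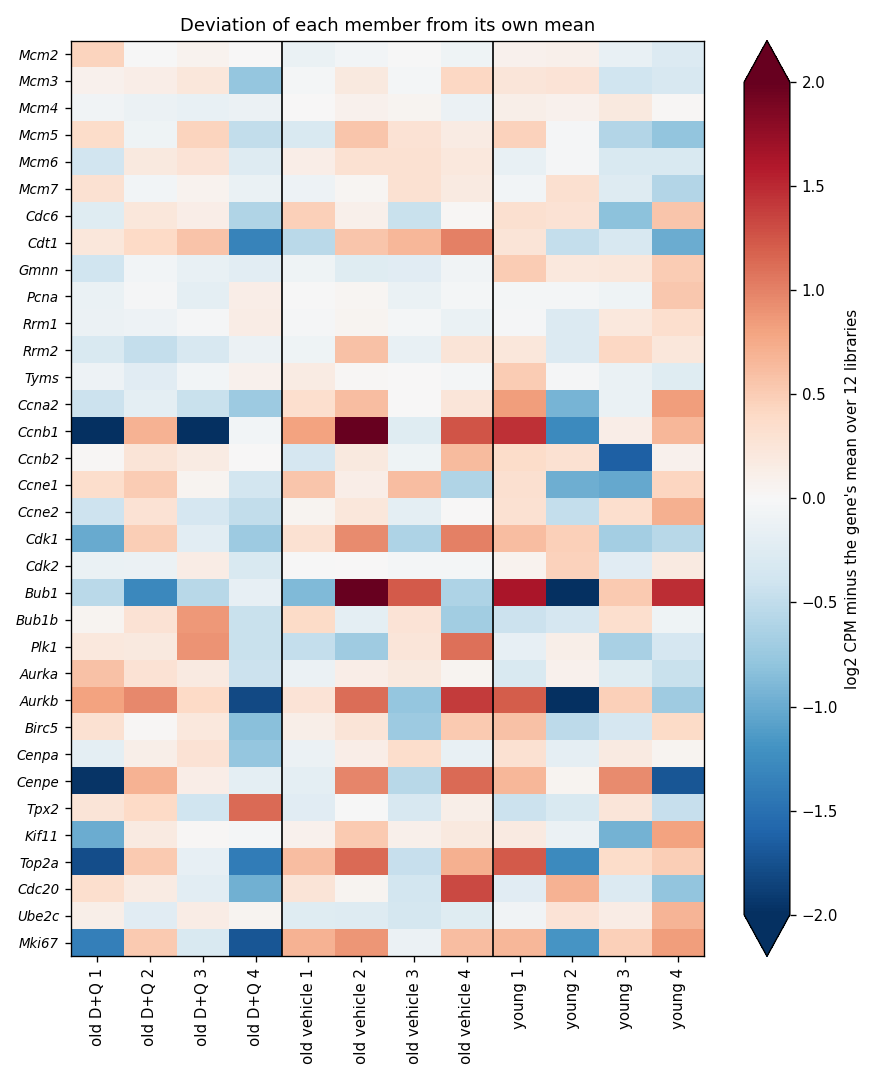
Heat map of log2 CPM, with 0.5 reads added, minus each gene's mean over the 12 libraries, for the 34 genes in D+Q, old vehicle and young libraries. With values rounded to 2 decimals, D+Q library 4 is below the gene's mean in 27 rows and old vehicle library 2 in 6.

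**Figure D5:**
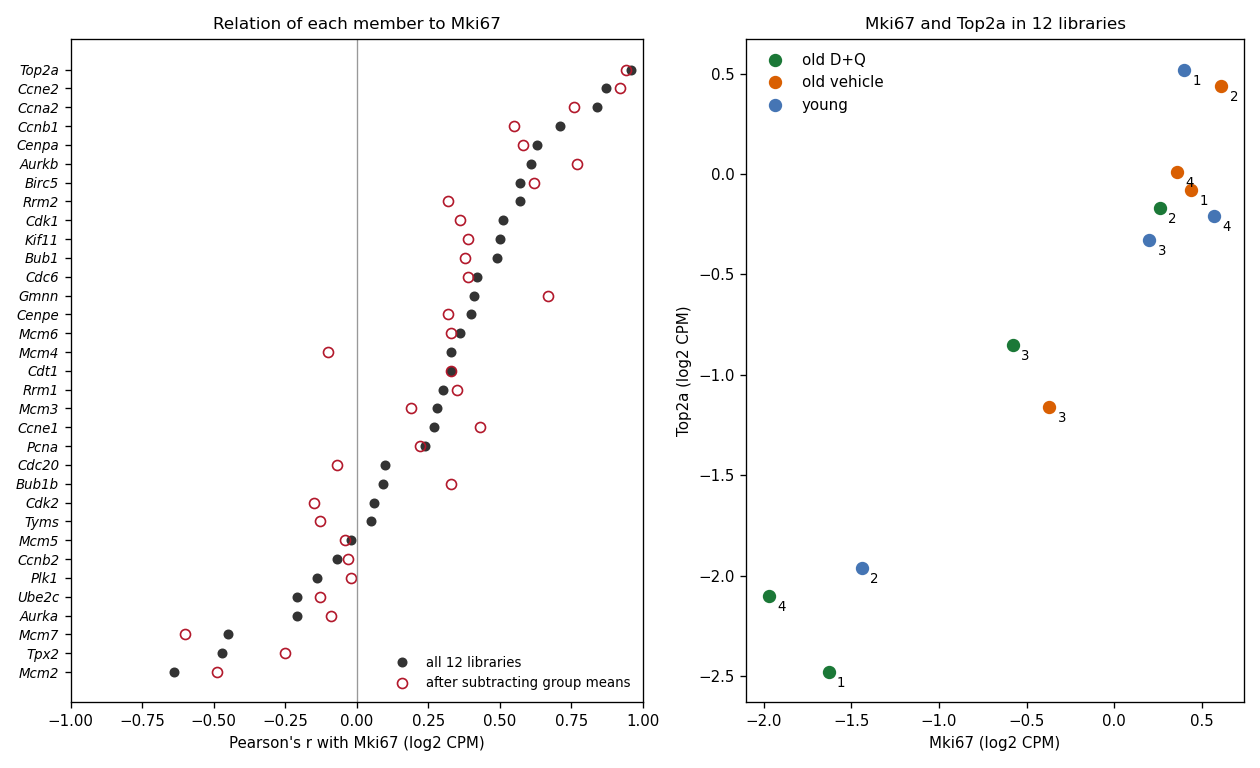
Left, Pearson's r of each gene with Mki67 over 12 libraries (filled) and after subtracting group means (open). Right, log2 CPM of Mki67 against Top2a in each library, with replicate numbers, where r is 0.96.

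Markers of several cell types, whether or not these divide in muscle, were read beside these values. The 12 satellite cell markers summed to 114 to 208 CPM in D+Q muscle, 128 to 242 CPM in old vehicle and 90.7 to 135 CPM in young muscle, and none was at 0 in any library. Sdc4 and Notch3 make up much of that sum. In the same order of groups Sdc4 averaged 65.6, 66.4 and 51.1 CPM and Notch3 32.0, 27.6 and 22.9 CPM. Pax7, the defining marker of satellite cells, averaged 1.99 CPM in D+Q muscle, 1.80 CPM in old vehicle and 2.69 CPM in young muscle. Myog, a factor of differentiating muscle cells, averaged 14.0 CPM in D+Q muscle, 28.6 CPM in old vehicle and 4.43 CPM in young muscle. It was the only marker of this list that passed, higher in old vehicle over young (log2 2.68 ± 0.36, adjusted p = 0.00242) and in D+Q over young (1.65 ± 0.35, adjusted p = 0.0453), with -1.03 ± 0.33 for D+Q over old vehicle (adjusted p = 1). Myod1 averaged 25.4 CPM in D+Q muscle, 31.3 CPM in old vehicle and 14.6 CPM in young muscle. The list did not move one way, with 6 of the 12 positive and 6 negative for old vehicle over young. Among the negative ones, Megf10 gave -1.21 ± 0.29 (adjusted p = 0.0586) and Calcr -1.31 ± 0.42 (adjusted p = 0.152). The 11 macrophage markers found of 12 summed to 105 to 140 CPM in D+Q muscle, 115 to 182 CPM in old vehicle and 104 to 147 CPM in young muscle. All 11 had a negative fold change for D+Q over old vehicle, where 47.0% of all genes did (63.1% with library totals alone), with a median log2 value of -0.15, and none passed. Cd68 alone of these passed in old vehicle over young (log2 0.86 ± 0.16, adjusted p = 0.0176). Fibro-adipogenic progenitor markers summed to 1340 to 1810 CPM in D+Q muscle, 1250 to 1660 CPM in old vehicle and 1450 to 1950 CPM in young muscle, and endothelial markers to 567 to 640, 549 to 616 and 505 to 662 CPM in the same order of groups. Of the progenitor markers, Cd34 fell (log2 -0.43 ± 0.09, adjusted p = 0.0359) and Cxcl14 rose (0.61 ± 0.10, adjusted p = 0.00988) in old vehicle over young, and D+Q over young gave -0.60 ± 0.09 (adjusted p = 0.0113) and 0.66 ± 0.10 (adjusted p = 0.0111). T and NK cell markers summed to 1.53 to 2.09 CPM in D+Q muscle, 0.612 to 1.81 CPM in old vehicle and 0.674 to 1.35 CPM in young muscle, and B and plasma cell markers to 158 to 307, 138 to 406 and 84.2 to 145 CPM. Erythroid markers summed to 14.5 to 86.5 CPM in D+Q muscle, 8.66 to 46.6 CPM in old vehicle and 4.59 to 14.5 CPM in young muscle, and 2 of them, Hba-a2 and Hbb-bt, rose in D+Q over young (adjusted p = 0.0433 and 0.0424). Neutrophil markers reached 20.3 CPM in D+Q library 4, which also had the highest Tpx2 level, against 0.922 to 1.67 CPM in the other D+Q libraries, 0.505 to 1.27 CPM in old vehicle and 0.482 to 1.83 CPM in young muscle. In that library 3 of the 9 neutrophil markers were at 0, and Mpo had no read in any D+Q or old vehicle library. The part of these cell types in the values of the 34 genes was not tested.

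The other genes of the pathway were taken from lists written with earlier results of these data known. The transcription regulators of the E2F, Myb and DREAM families were the only list of 5 with called genes. Of its 20 tested genes (21 listed), 2 rose in old vehicle against young (background 1.21% for rises), 0 passed in D+Q against old vehicle and 1 rose in D+Q against young (background 0.526%). E2f2, an activator of replication genes, had 12.6, 12.6, 11.2 and 9.78 CPM in D+Q muscle, 8.99, 14.9, 11.8 and 12.6 CPM in old vehicle and 4.54, 4.68, 3.19 and 3.88 CPM in young muscle. Every old library was above every young one. It rose 2.95-fold in old vehicle over young (log2 1.56 ± 0.18, adjusted p = 0.000835, 8.82e-15 to 0.00603 over 17 other settings) and 2.82-fold in D+Q over young (log2 1.5 ± 0.18, adjusted p = 0.00372). Rb1, the retinoblastoma protein that holds E2F factors in check, had 35.9, 38.5, 27.0 and 37.1 CPM in D+Q muscle, 53.8, 53.8, 52.1 and 55.7 CPM in old vehicle and 26.2, 20.1, 35.5 and 36.3 CPM in young muscle. Old vehicle libraries were above all others. Rb1 rose 1.82-fold in old vehicle over young (log2 0.87 ± 0.17, adjusted p = 0.0233), a call kept in 10 of 17 other settings, with an adjusted p of 0.00113 to 0.0988. It was lost in the fit of the 2 groups alone (0.0657), without young library 1 (0.0834) and without any one of the old vehicle libraries (0.06 to 0.0988), with a log2 fold change of 0.81 to 0.88. For D+Q over old vehicle the log2 fold change was -0.64 ± 0.17, with an unadjusted p of 0.00285 and an adjusted p of 1. The median log2 fold change of the list was 0.07, -0.05 and 0.02 for old vehicle over young, D+Q over old vehicle and D+Q over young. E2f3, another activator, and Lin9, a DREAM core subunit, gave -0.25 ± 0.12 and 0.10 ± 0.16 for old vehicle over young.

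Of 43 other DNA replication genes, 41 were tested and 0 passed in any comparison, with 6, 0 and 10 at an unadjusted p under 0.05 for old vehicle over young, D+Q over old vehicle and D+Q over young, against 16.0%, 2.16% and 17.8% of all genes. Dut, the dUTPase that keeps uracil out of DNA, averaged 5.78 ± 0.996 CPM in D+Q muscle, 5.93 ± 0.881 CPM in old vehicle and 9.06 ± 0.797 CPM in young muscle (SD, n = 4). Like Gmnn, each old library lay below each young one, and the log2 fold change was -0.61 ± 0.15 for old vehicle over young (adjusted p = 0.0697) and -0.65 ± 0.15 for D+Q over young (adjusted p = 0.0739). Rpa1, of the single-strand binding complex, averaged 140 ± 7.59 CPM in D+Q muscle, 128 ± 6.72 CPM in old vehicle and 109 ± 4.06 CPM in young muscle, with 0.36 ± 0.08 for D+Q over young (adjusted p = 0.0592). Its partner Rpa3 gave -0.42 ± 0.14 and the origin subunit Orc6 -0.38 ± 0.12 in that comparison, with adjusted p of 0.182 and 0.173.

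Of 60 other mitosis genes, 58 were found and 41 tested, and 0 passed, with 9, 4 and 9 at an unadjusted p under 0.05 in the same order of comparisons, against 16.0%, 2.16% and 17.8% of all genes. For D+Q over old vehicle 30 of the 41 were negative, where 47.0% of all genes were, with a median log2 fold change of -0.11. The 41 other DNA replication genes tested did not share this direction, with 19 negative, 22 positive and a median of 0.02. These counts carry no test. Ckap2, a spindle-associated protein, had 0.239, 0.544, 0.518 and 0.244 CPM in D+Q muscle, 0.692, 0.978, 0.623 and 1.59 CPM in old vehicle and 0.629, 0.134, 0.177 and 0.227 CPM in young muscle. Each old vehicle library was above each D+Q library, with -1.33 ± 0.46 for D+Q over old vehicle (adjusted p = 1) and 1.69 ± 0.49 for old vehicle over young (adjusted p = 0.109). Its relative Ckap2l gave -1.34 ± 0.46 for D+Q over old vehicle. Anln and Racgap1, of the cleavage furrow, and Cenpw, of the kinetochore, gave -0.51 ± 0.17, -0.66 ± 0.21 and -0.95 ± 0.26 for D+Q over young, with adjusted p of 0.183, 0.166 and 0.121.

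The 10 tested of 11 G1 cyclins and kinases had 0 calls, and cyclin D1 (Ccnd1), which starts G1 progression, averaged 11.1 ± 6.22 CPM in D+Q muscle, 15 ± 5.07 CPM in old vehicle and 8.96 ± 1.78 CPM in young muscle. Ccnh, Cdc25a and Ccnc gave -0.45 ± 0.19, -0.20 ± 0.10 and -0.10 ± 0.18 for D+Q over young. The 6 tested of 8 kinase inhibitors also had 0 calls. Cdkn1a (p21), which arrests the cycle and is used as a senescence marker, had 107, 135, 127 and 204 CPM in D+Q muscle, 180, 241, 138 and 209 CPM in old vehicle and 57.2, 79.8, 28.8 and 114 CPM in young muscle. Each old vehicle library was above each young one, with a log2 fold change of 1.45 ± 0.35 and an adjusted p of 0.0545, and D+Q over old vehicle gave -0.42 ± 0.34. Cdkn1b (p27) went the other way, with -0.49 ± 0.14 for old vehicle over young (adjusted p = 0.106) and -0.58 ± 0.14 for D+Q over young (adjusted p = 0.08). Cdkn1c (p57) gave 0.31 ± 0.12 for old vehicle over young (adjusted p = 0.223).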

How the data were processed

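Stranded mRNA libraries of quadriceps were sequenced, per the labels' protocols. The submitters' processing notes name STAR 2.6.1c, featureCounts 1.5.1, Subread and mm10; how strand was set and which annotation was used is not given in the sources used here. Raw counts per gene, deposited by the authors, entered every test, and the authors also deposited RPKM values with gene lengths and coordinates, whose columns were tied to groups only.

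Groups came from the labels. edgeR 4.0.16 in R 4.3.3 kept genes by filterByExpr (minimum count 10, total 15) and fitted group means to all 12 libraries, TMM-scaled; calls had a Benjamini-Hochberg adjusted p under 0.05. SE is the log2 fold change over the square root of F. The procedure was tested on simulated data. Within groups, chi-square per gene between any 2 libraries was 19.7 to 299, so none was a copy. Correlations used log2 CPM with 0.5 reads added and 100000 permutations of all 12 libraries, not kept within groups.

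The members and lists were chosen with earlier results of these data known. Library values are given for the 4 members with the smallest p in each comparison, the 4 with the highest mean RPKM, Mki67, Top2a, Pcna and Cdk1; of each list, for called genes and the 2 with the smallest p per comparison, values are given. Other settings were DESeq2 1.42.0, limma-voom (limma 3.58.1), RLE factors or library totals, 2 other filters, robust shrinkage, fits of 2 groups, a replicate block and each library left out.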

Additional observations from a re-analysis of the deposited data

Results flagged for a closer look

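Pcna in young library 4, at 35.4 CPM, stood apart from the other young libraries at 22.9 to 23.7 CPM. Its gap to the nearest library was 0.936 of the group's range, past Dixon's 95% critical value for 4 samples. It was the only one of 42 sets of 4 library values so marked (14 genes in 3 groups), and chance marks about 1 in 20.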

How the results depend on the processing

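Of 804 values for the 14 library-by-library genes, E2f2 and Rb1 under other settings, 764 kept direction and side of the threshold. The cause of the changes was not tested. All genes called in old vehicle against young numbered 300, but 778 with DESeq2, 188 in the 2-group fit, 141 with the replicate block and 146 to 1022 without 1 library. In D+Q against old vehicle 0 became 12 with DESeq2. In D+Q against young 144 became 610 with DESeq2, 25 in the 2-group fit, 35 with the block and 44 to 1935 without 1 library, the highest counts both without young library 2. Members called were 1 (Gmnn) with DESeq2 and 1 with the filter of 1 CPM against young in either old group, and 0 to 1 (old vehicle) and 0 to 3 (D+Q) without 1 library. Same-numbered libraries correlated from -0.401 to 0.41, so numbers were not taken as pairs; the replicate block also took the adjusted p of Rb1 to 0.0719. Signs of log2 fold changes near 0 turned. For old vehicle over young, Ccna2 turned to 0.16 with limma-voom, 0.00 in the 2-group fit and 0.04 with the block. Without 1 library at a time Ccna2 ran from -0.3 to 0.24, Mki67 from -0.11 to 0.42, Top2a from -0.16 to 0.61, Pcna from -0.23 (without young 2) to 0.02 (without young 4) and Rrm2 from -0.15 to 0.11, and the lowest values of Mki67, Top2a and Ccna2 were without young 2. For D+Q over old vehicle, Rrm1 turned to -0.04 with library totals, and without 1 library Rrm1 ran from -0.04 to 0.05, Pcna from -0.08 to 0.03, Aurka from -0.03 to 0.29, Gmnn from -0.09 to 0.01 and E2f2 from -0.18 to 0.05. For D+Q over young, Pcna ran from -0.25 to 0.00 and Rrm1 from -0.23 to 0.00. The 5 genes below the filter rest on only 8 to 39 reads per group.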
